A study of Homo sapiens
Mus musculus with 6 samples.

Results

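The genes described here are 4 entries of the mouse gene table (Nefl, Nefm, Stmn2 and Krt19) and 5 of the human gene table (NEFL, NEFM, INA, STMN2 and KRT19). They are 9 of 47288 entries, 23433 in the mouse table and 23855 in the human table. They were chosen by their measured RPKM levels: genes taken as markers of HEK cells, which are human, stood high in the mouse table. Their high mouse levels are therefore a description here and carry no test. Ina, the mouse counterpart of INA, was added so that each human gene had its mouse partner.

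Neurofilaments are intermediate filaments of the axon, built from the light chain (NEFL), the medium chain (NEFM), the heavy chain (NEFH) and alpha-internexin (INA). STMN2 binds tubulin dimers and acts in axon growth, and its mRNA is used as a marker of neurons. KRT19 is an acidic keratin of simple epithelia, where it pairs with the basic keratin KRT8. HEK-293 cells came from human embryonic kidney cultures and are known to carry neurofilament proteins beside keratins. C2C12 cells are mouse myoblasts, in which the intermediate filament proteins are mainly vimentin, nestin and desmin.

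The study placed mouse cells carrying the Notch receptor in contact with human cells carrying its ligand Jag1, and sequenced polyadenylated RNA from the mixed wells. The mouse cells were C2C12-control or C2C12-Notch1, a line that stably carries full-length Notch1 and was selected with puromycin. The human cells were HEK-293-Flp-In lines selected with hygromycin: HEK-control, HEK-Jag1WT with wild-type Jag1, or HEK-Jag1Ndr with the Ndr (Nodder) form. All C2C12 cells, controls included, had received 1.6 ug of empty plasmid per well; HEK cells were added 18 h after that transfection and the mixture was kept for 6 h. Each of the 6 combinations of lines was sequenced in 1 well, so the wells that share a line stand in as its replicates. Each C2C12 line was in 3 wells and each HEK line in 2. The labels name no separate cultures and do not say whether a line is a clone or a pool. The p-values therefore rest only on the spread between these wells that is left after the lines are fitted. That spread is pooled over the genes of a table, so a very small p-value does not come from 1 gene's own wells alone. A transgene cannot be told apart from the line that carries it.

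A table held between 2263529 and 10292878 gene reads per well. The mouse share of all gene reads was 47.25 to 52.72% with C2C12-control and 29.64 to 36.52% with C2C12-Notch1. Jag1 had 110 and 280 mouse-table reads beside HEK-control and at least 42347 beside either ligand line, and Notch1 stood at 9.06 to 20.4 RPKM in C2C12-control wells against 158 to 179 RPKM in C2C12-Notch1 wells. The Jag1 reads that came with the ligand lines thus fell in the mouse table although those cells are human. RPKM, reads per kilobase of transcript per 1000000 reads, is used below to set genes beside each other. Reads per 1000000 gene reads of the same species are used to set wells beside each other. The 2 tables were normalised separately, so levels set across them are approximate. In bulk RNA, fewer cells of a type and less RNA per cell cannot be told apart.

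In the mouse table, Nefl had the highest mean over the 6 wells at 116 RPKM, above Stmn2 at 62.7, Krt19 at 41.8 and Nefm at 41.1 RPKM. Among the 16040 mouse genes with at least 1 read, these means ranked 633, 1419, 2367 and 2419. In the human table, INA at 104 RPKM and NEFL at 96.0 RPKM were the highest, followed by KRT19 at 57.0 RPKM. They ranked 704, 806 and 1687 of 18831 human genes with a read. NEFM at 0.618 RPKM and STMN2 at 0.0185 RPKM ranked 13878 and 17986. The high genes thus differed between the species: Nefm and Stmn2 were abundant only in the mouse reads and INA only in the human reads, while both light chains and both keratin 19 genes were abundant.

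**Figure D1:**
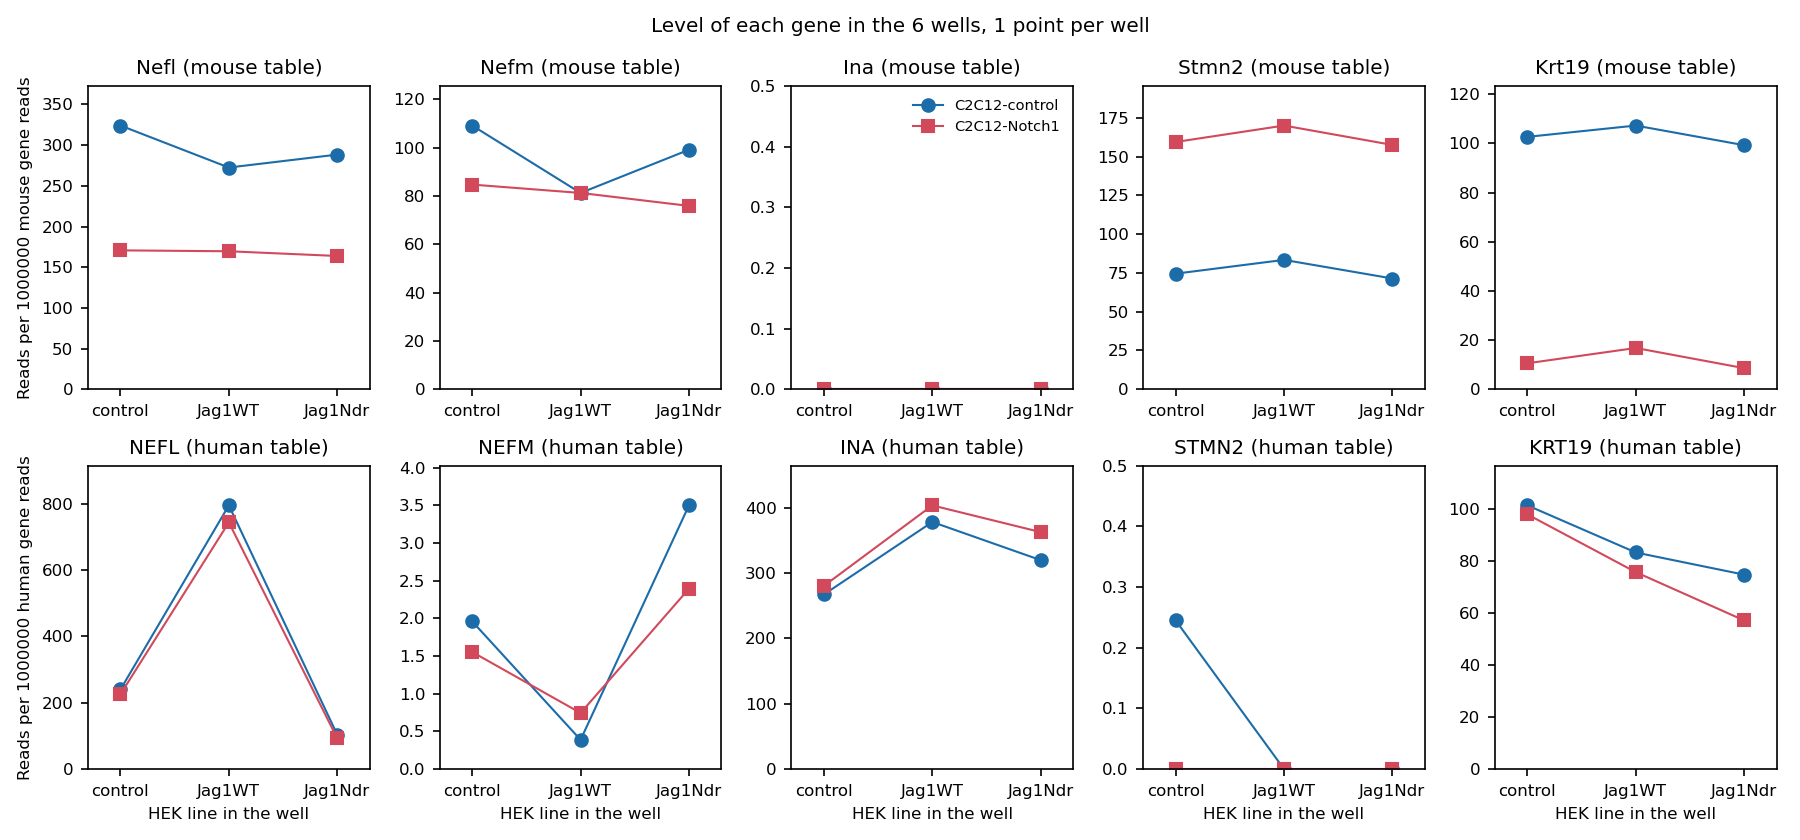
Reads per 1000000 gene reads of the same species (vertical axes, linear from 0) for each mouse gene (top row) and its human partner (bottom row), against the HEK line in the well; blue circles are C2C12-control wells and red squares C2C12-Notch1 wells. The 2 colours lie apart for Nefl, Stmn2 and Krt19 and close together for NEFL, whose points separate by HEK line; Ina and STMN2 lie at or near 0.

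Each table was tested whole with edgeR's quasi-likelihood test, with the C2C12 line and the HEK line as terms; a gene was called at an adjusted p under 0.05 (Benjamini-Hochberg). Of the 9 genes, 8 passed the filter on low counts; STMN2 did not. Between C2C12-Notch1 and C2C12-control wells, all 4 mouse genes were called, where 57.8% of the 11365 mouse genes tested were called. Nefl, Nefm and Krt19 were lower in the wells with the Notch1 line and Stmn2 was higher.

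Nefl, the light chain on which the other subunits assemble, of C2C12-control wells stood at 324 reads per 1000000 mouse reads beside HEK-control, 272.5 beside HEK-Jag1WT and 288 beside HEK-Jag1Ndr. In the C2C12-Notch1 wells the values, in the same order, were 171, 169.6 and 164. The 2 sets of wells did not overlap, and the Notch1 wells lay within a narrow band. In RPKM the means were 147 ± 13.2 against 84.0 ± 1.85 (SD, n = 3). The fitted log2 difference was −0.83 ± 0.055 (SE), a level 1.77-fold lower, with an edgeR adjusted p of 1.77e-19.

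Nefm, the medium chain, moved less. It stood at 109, 81.3 and 99.2 reads per 1000000 mouse reads in the C2C12-control wells and at 84.7, 81.3 and 75.9 in the C2C12-Notch1 wells. The groups met beside HEK-Jag1WT, where the difference between the 2 wells was 0.00 on the log2 scale against −0.37 beside HEK-control and −0.39 beside HEK-Jag1Ndr. The fitted log2 difference was −0.29 ± 0.076 (SE; edgeR adjusted p = 0.00086). DESeq2 did not call it (log2 −0.27, adjusted p = 0.107).

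Ina had 0 reads in all 6 wells, which allows up to 0.108 reads per 1000000 mouse reads over the set (counting error only). Of the other intermediate filament genes in the mouse table, vimentin (Vim) stood at a mean of 2850 RPKM, nestin (Nes) at 480.4 and desmin (Des) at 476 RPKM, while the heavy chain Nefh was at 0.0309 and peripherin (Prph) at 0.414 RPKM. Nefl and Nefm were thus the only neurofilament subunits above 1 RPKM in the mouse reads. Of the 6 genes of this list that could be tested, 2 were higher in the Notch1 wells, Nes (log2 0.59) and Synm (3.02). The other 4 were lower: Nefl, Nefm, Des (−0.61) and Vim (−0.12). Synm had only 40 reads in all, 0 to 15 per well. It could pass the filter on low counts only through the wells where it was high, so its direction carries no weight. The median log2 difference of the 6 was −0.21, beside 0.0026 over all mouse genes tested, of which 28.4% were called higher and 29.4% lower.

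Stmn2 had the opposite direction to Nefl. It stood at 74.6, 83.4 and 71.4 reads per 1000000 mouse reads in C2C12-control wells and at 159.5, 170.1 and 158 in C2C12-Notch1 wells. The highest control well was below every Notch1 well. Mean RPKM was 40.1 ± 3.25 against 85.4 ± 3.62 (SD, n = 3), and the fitted log2 difference was 1.09 ± 0.066 (SE), 2.12-fold (edgeR adjusted p = 2.62e-21). In C2C12-control wells the Stmn2 and Nefm RPKM ranges overlapped, below Krt19 and Nefl. In the Notch1 wells Stmn2 overlapped with Nefl, above Nefm, and Krt19 was lowest.

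The Notch1 wells also held more human reads for each mouse read, 2.03 ± 0.321 against 1.01 ± 0.110 (SD, n = 3), a ratio of 2.00. Divided by the human gene reads of the same well, Stmn2 was 72.8, 74.7 and 79.7 per 1000000 in C2C12-control wells and 80.6, 71.6 and 90.7 in C2C12-Notch1 wells. On that scale the 2 sets of wells overlapped, with a log2 difference of 0.09. The coefficient of variation over the 6 wells was 39.7% per mouse reads and 8.99% per human reads. Of the 11365 mouse genes tested, 12 (0.106%, Stmn2 included) were at least as steady per human reads, and 10.9% were steadier per human than per mouse reads. The fitted log2 differences of the 12 between the C2C12 lines ran from 0.83 (Lpp) to 1.09 (Stmn2). A gene with a difference near the ratio of 2.00 comes out steady per human reads by arithmetic, so the steadiness restates that difference. Within the C2C12-control wells Stmn2 was somewhat steadier per human reads (4.69% against 8.15%), and within the Notch1 wells it was less steady (11.8% against 4.15%). A difference of Stmn2 between the mouse lines and a constant amount per human read cannot be told apart in these wells, and the species of origin of its reads was not tested. The other 3 mouse genes varied more per human reads than per mouse reads: 62.7% against 30.9% for Nefl, 49.3% against 14.4% for Nefm and 98.2% against 87.0% for Krt19.

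**Figure D2:**
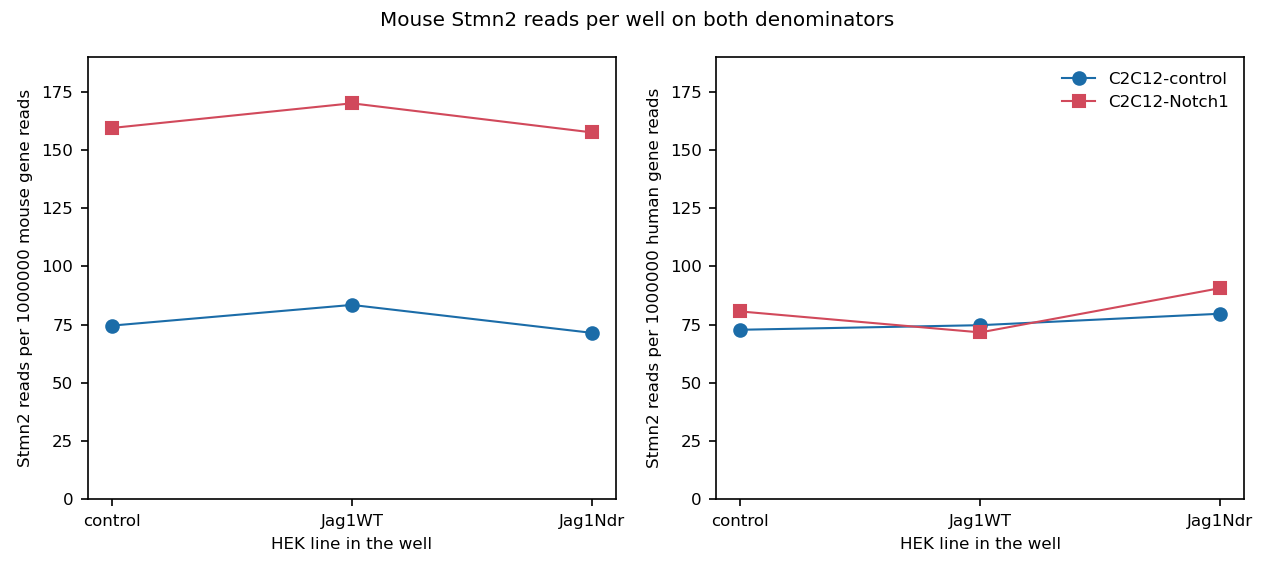
Stmn2 reads per 1000000 mouse gene reads and per 1000000 human gene reads of the same well (vertical axes), 1 point per well, by HEK line and C2C12 line. Per mouse reads the C2C12-Notch1 wells stand at 158 to 170.1 and the control wells at 71.4 to 83.4; per human reads they overlap, at 71.6 to 90.7 and 72.8 to 79.7.

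Of the stathmin family, which regulates microtubule growth, Stmn4 at a mean of 45.9 RPKM was the only other mouse gene near the level of Stmn2; Stmn1, which has near-identical copies in the genome that make its count uncertain, stood at 11.7 and Stmn3 at 0.0967 RPKM. Of 3 stathmins tested between the C2C12 lines, Stmn2 alone was called higher and none lower. Over all mouse genes tested, 28.4% were called higher and 29.4% lower, so this count is not a result about the family. In the human table the order was different: STMN1 stood at 194.6, STMN3 at 22.9 and STMN4 at 1.38 RPKM, with STMN2 lowest.

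Krt19 had the largest difference of the 4 mouse genes. It stood at 103, 107 and 99.3 reads per 1000000 mouse reads in C2C12-control wells, from 409, 495 and 791 reads, and at 10.6, 16.8 and 8.58 in C2C12-Notch1 wells, from 55, 38 and 33 reads. No Notch1 well came near a control well. Mean RPKM was 74.9 ± 2.92 against 8.68 ± 3.18 (SD, n = 3); the fitted log2 difference was −3.20 ± 0.11 (SE), a level 9.19-fold lower (edgeR adjusted p = 4.11e-32). It was −3.28 beside HEK-control, −2.68 beside HEK-Jag1WT and −3.53 beside HEK-Jag1Ndr.

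Krt19 stood nearly alone among epithelial genes of the mouse table. Its usual partner Krt8 stood at 1.28 RPKM (28 reads in all), and Krt18 and Krt20 had 0 reads. Among the other keratins, Krt80 had the highest mean, 30.2 RPKM, and was lower in the Notch1 wells (log2 −0.34, adjusted p = 0.00054). Of 13 epithelial junction and regulator genes, 6 had no mouse read (Epcam, Cldn3, Cldn6, Cldn7, Esrp1 and Ovol2). The adhesion gene Cdh1 was at 0.119 RPKM and only Tjp1, at 23.2 RPKM, had a mean over the 6 wells above 1 RPKM. The other gene of the list that could be tested, the tight junction gene Ocln, had 78 reads, 0 to 40 per well. Its level ranged from 0 to 1.57 RPKM and was lower in the Notch1 wells (log2 −5.37). With so few reads, Ocln could pass the filter on low counts only through the wells where it was high. Its direction therefore adds no support to that of Krt19. The name "epithelial" for the mouse reads thus rests mainly on Krt19, since most genes of these lists had few or no mouse reads.

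The neuronal name also rested on few genes there. Of 20 neuron markers, 8 were at 1 RPKM or more in the mouse table, led by Tubb3 at 69.1, Ncam1 at 45.1, Gap43 at 26.3 and L1cam at 16.8 RPKM. Dcx, Snap25, Elavl4 and Scg3 had 0 reads and Rbfox3 was at 0.0169 RPKM. Between the C2C12 lines 1 of the 8 tested was higher in Notch1 wells (Ncam1, log2 0.65) and 6 were lower, among them Gap43 (−4.07), L1cam (−1.42) and Tubb3 (−0.22), with a median of −0.82. Over all mouse genes tested 28.4% were higher and 29.4% lower, with a median of 0.0026. The summed level of the list was 216 to 232.6 RPKM in the control wells and 143 to 166 RPKM in the Notch1 wells. Nefl, Nefm and Krt19 moved in the direction of the sum and Stmn2 did not. The part of these genes in the neurofilament result was not tested.

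The HEK line next to the mouse cells gave no call for any of the 4 mouse genes. Between HEK-Jag1WT and HEK-control 0 of 4 were called, where 4.46% of all mouse genes were called by edgeR. The largest of these differences was Nefm at −0.25 (95% interval −0.44 to −0.054, unadjusted p = 0.0130, adjusted p = 0.171), and Nefl stood at −0.12 (−0.26 to 0.019). Between HEK-Jag1Ndr and HEK-control 0 of 4 were called (0.528% of all genes), with log2 differences from −0.11 for Nefm to −0.01 for Stmn2. Between HEK-Jag1Ndr and HEK-Jag1WT 0 of 4 were called (2.03% of all genes), with Stmn2 at −0.18 (−0.34 to −0.014, unadjusted p = 0.0336, adjusted p = 0.446) and Krt19 at −0.20 (−0.41 to 0.018). Krt19 rests on few reads in the C2C12-Notch1 wells, and 1 well moves it. Without the C2C12-control well of HEK-Jag1WT, its difference between HEK-Jag1WT and HEK-control went from 0.15 to 0.80 (adjusted p = 0.161) and that between the ligand lines from −0.20 to −0.85 (adjusted p = 0.212). Within C2C12-Notch1 alone the ligand lines differed by −0.97 (interval of counting error −1.69 to −0.26), and within C2C12-control by −0.11 (−0.28 to 0.053). Without the well of C2C12-Notch1 with HEK-Jag1WT, Nefm was called lower beside HEK-Jag1WT (log2 −0.40, adjusted p = 0.0349).

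**Figure D3:**
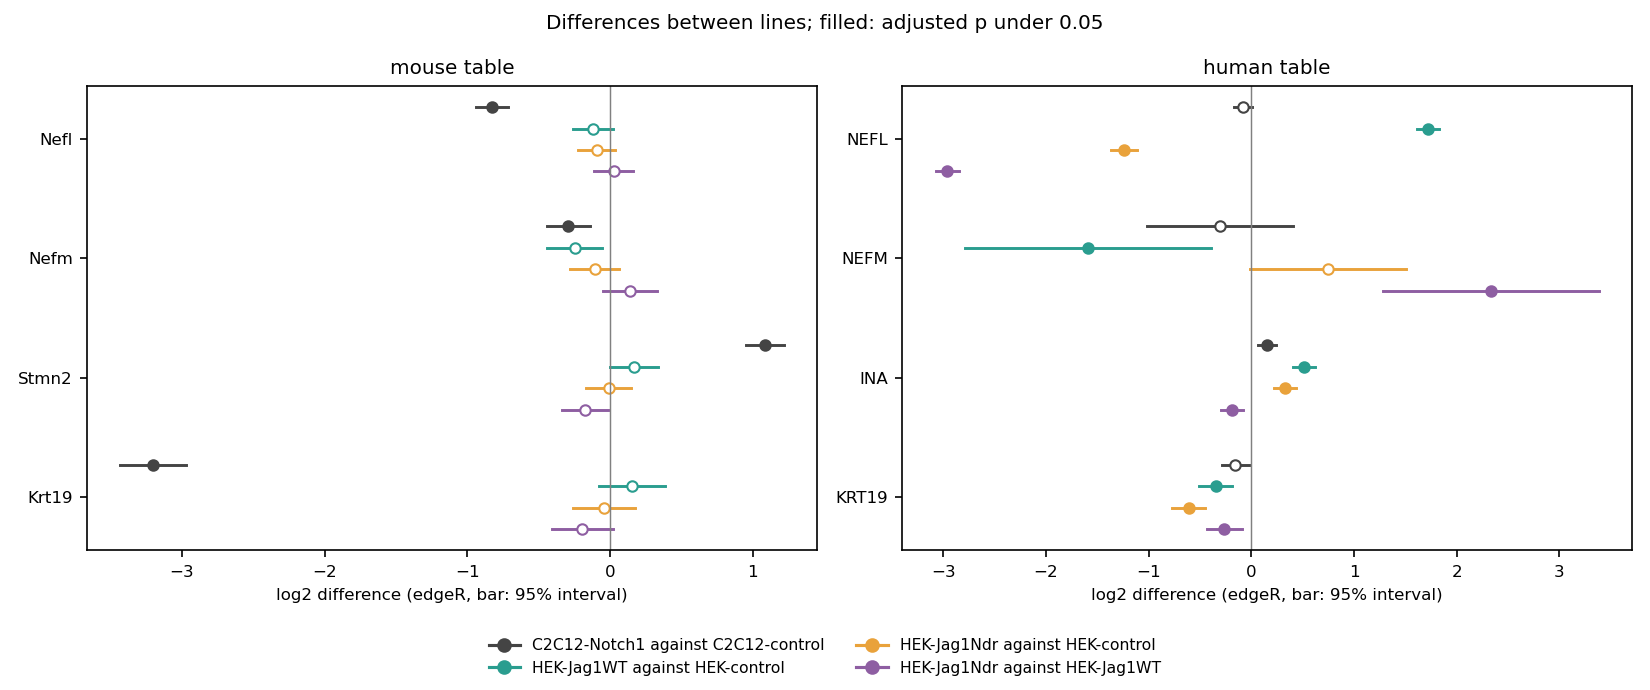
Fitted log2 differences (horizontal axes) with 95% intervals for each gene in the 4 comparisons, mouse table and human table in separate panels; filled points have an edgeR adjusted p under 0.05. In the mouse panel the filled points are the 4 of the C2C12 comparison; in the human panel NEFL spans −2.96 to 1.72 across the HEK comparisons.

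In the human table the larger differences of these genes lay between the HEK lines. NEFL stood at 240.1 and 226 reads per 1000000 human reads in the 2 HEK-control wells (beside C2C12-control and C2C12-Notch1), at 795 and 744 in the HEK-Jag1WT wells and at 104 and 92.8 in the HEK-Jag1Ndr wells. The 3 lines did not overlap, and each pair of wells lay close together. Mean RPKM was 60.9 ± 2.64, 201 ± 9.64 and 25.7 ± 2.14 (SD, n = 2). Against HEK-control, NEFL was 3.29-fold higher in HEK-Jag1WT (log2 1.72 ± 0.053 SE, edgeR adjusted p = 1.19e-66) and 2.36-fold lower in HEK-Jag1Ndr (−1.24 ± 0.062 SE, adjusted p = 9.20e-42). Between the 2 ligand lines it was 7.78-fold lower in HEK-Jag1Ndr (−2.96 ± 0.059 SE, adjusted p = 6.86e-94). The 2 ligand lines thus stood on opposite sides of the control line, beside either C2C12 line.

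The background of these comparisons was high. Of 13596 human genes tested, 54.2% were called between HEK-Jag1WT and HEK-control, 46.4% between HEK-Jag1Ndr and HEK-control and 58.2% between the ligand lines. Of the 4 human genes tested, 4, 3 and 4 were called, so the counts themselves are not a result about them. By direction, 26.2% of all genes were higher and 28% lower in HEK-Jag1WT than in HEK-control, and 22.9% were higher and 23.5% lower in HEK-Jag1Ndr.

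INA, which assembles with NEFL, had smaller differences. It stood at 267 and 280.4 reads per 1000000 human reads in HEK-control wells, 378 and 404 in HEK-Jag1WT and 319.8 and 363 in HEK-Jag1Ndr. Both ligand lines lay above the control line. The log2 differences from HEK-control were 0.51 ± 0.055 (SE, edgeR adjusted p = 2.10e-15) and 0.32 ± 0.054 (SE, adjusted p = 1.52e-07). HEK-Jag1Ndr was lower than HEK-Jag1WT by a log2 difference of −0.19 ± 0.054 (SE, adjusted p = 0.00128). That last call was lost with DESeq2 (adjusted p = 0.0637), on omitting the HEK-Jag1WT well with C2C12-control (0.0835) and on omitting the HEK-Jag1Ndr well with C2C12-control (0.123).

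NEFM was scarce, with 71 reads over the 6 wells. Its reads were 8 and 16 in HEK-control, 2 and 4 in HEK-Jag1WT and 25 and 16 in HEK-Jag1Ndr, or 1.96 and 1.55, 0.388 and 0.744, and 3.50 and 2.39 per 1000000 human reads. In these few reads the order of the lines was opposite to that of NEFL, though HEK-Jag1Ndr was not called apart from HEK-control. The deposited RPKM of NEFM is not in a fixed ratio to its reads: 1 read per 1000000 was worth 0.294 to 0.470 RPKM depending on the well, so its reads are used here; for the other 7 genes with reads in every well that ratio varied by at most 1.02-fold. NEFM was lower in HEK-Jag1WT than in HEK-control (log2 −1.59 ± 0.61 SE, adjusted p = 0.0198) and higher in HEK-Jag1Ndr than in HEK-Jag1WT (2.34 ± 0.53 SE, adjusted p = 6.69e-05). Between HEK-Jag1Ndr and HEK-control it was 0.75 (95% interval −0.017 to 1.51, adjusted p = 0.105), and limma called it higher on log2(RPKM + 0.1) and log2(RPKM + 1) (adjusted p = 0.0431 and 0.0243). Few reads carry these calls. The first was lost with DESeq2 (adjusted p = 0.202), with limma on log2(RPKM + 1) (0.0528) and without any of 3 wells: C2C12-control with HEK-control (0.0636), C2C12-Notch1 with HEK-control (0.115) and C2C12-control with HEK-Jag1WT (0.325, log2 −0.99). The second was lost without that last well (log2 1.71, adjusted p = 0.0523). In the RefSeq table of GRCh38.p14, NEFL and NEFM are neighbours with 0 protein-coding genes between them.

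Of the intermediate filament genes in the human table, vimentin (VIM) had the highest mean at 244 RPKM, followed by INA and NEFL, with SYNM, the synemin gene, at 18.9 RPKM. NEFH was at 1.25, NES at 1.69 and DES at 0.209 RPKM. Of the 8 tested, 4 were higher and 2 lower in HEK-Jag1WT than in HEK-control (median log2 0.26, beside −0.0053 over all genes), and 3 were higher and 3 lower in HEK-Jag1Ndr (median 0.070, beside −0.0062). VIM was higher in both ligand lines (log2 0.25 and 0.30) and NEFH lower in both (−1.27 and −1.23). Between the ligand lines 1 was higher and 3 were lower in HEK-Jag1Ndr. Over all human genes tested, 26.2% were higher and 28% lower in HEK-Jag1WT, and 22.9% and 23.5% in HEK-Jag1Ndr. Between the ligand lines these shares were 28.2% and 29.9%.

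STMN2 had 1 human read, in the well of C2C12-control with HEK-control, and 0 in the other wells. A count of 0 allows 0.292 to 0.582 reads per 1000000 human reads in a well. No comparison was possible. STMN4, its relative, was higher in HEK-Jag1WT than in HEK-control (log2 2.35), and STMN3 was lower (−0.36).

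KRT19 stood at 101 and 97.9 reads per 1000000 human reads in HEK-control, 83.3 and 75.7 in HEK-Jag1WT and 74.8 and 57.2 in HEK-Jag1Ndr. The HEK-control wells lay above all others, and the lowest HEK-Jag1WT well was just above the highest HEK-Jag1Ndr well. The log2 differences from HEK-control were −0.35 ± 0.082 (SE, edgeR adjusted p = 0.000145) in HEK-Jag1WT and −0.61 ± 0.081 (SE, adjusted p = 5.87e-11) in HEK-Jag1Ndr. Between the ligand lines it was −0.26 ± 0.086 (SE, adjusted p = 0.0055). The first call was lost without the well of C2C12-Notch1 with HEK-control (log2 −0.23, adjusted p = 0.0646). The last was lost with DESeq2 (adjusted p = 0.139), on omitting the HEK-Jag1WT well with C2C12-Notch1 (0.0956) and on omitting the HEK-Jag1Ndr well with C2C12-Notch1 (log2 −0.13, adjusted p = 0.324).

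Unlike Krt19, KRT19 stood among other epithelial genes. KRT8 was at a mean of 272 RPKM and KRT18 at 101 RPKM, both with near-identical copies in the genome that make their counts uncertain. EPCAM was at 188 RPKM, TJP1 at 27.9, ESRP2 at 22.2 and OCLN at 21.7 RPKM, and 8 of the 13 genes of the epithelial list were at 1 RPKM or more. All 3 simple keratins tested were lower in HEK-Jag1WT than in HEK-control, KRT8 by −0.34 and KRT18 by −0.18 (adjusted p = 0.0407), while KRT19 alone was called lower in HEK-Jag1Ndr. Over all human genes tested, 26.2% were called higher and 28% lower in HEK-Jag1WT, and 22.9% higher and 23.5% lower in HEK-Jag1Ndr. Of 9 epithelial genes tested, 1 was higher in HEK-Jag1WT (TJP1, log2 0.58) and 4 were lower, among them EPCAM (−0.37) and ESRP2 (−0.87). The median of the 9 was −0.15, beside −0.0053 over all human genes tested. In HEK-Jag1Ndr 1 was higher (ESRP1, 0.42) and 5 were lower, with a median of −0.40 beside −0.0062 over all genes. The summed level of the list was 312 to 339 RPKM in HEK-control, 266 to 275 RPKM in HEK-Jag1WT and 249 to 276 RPKM in HEK-Jag1Ndr. KRT17, a keratin of basal cells and the highest of the other keratins at 164.5 RPKM, went the opposite way, higher in HEK-Jag1WT (0.37) and in HEK-Jag1Ndr (1.56). It was also higher beside C2C12-Notch1 than beside C2C12-control (log2 0.60, edgeR adjusted p = 3.38e-20). KRT10, the only other keratin outside the simple ones that was tested, was lower in both ligand lines (−0.54 and −0.42).

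**Figure D4:**
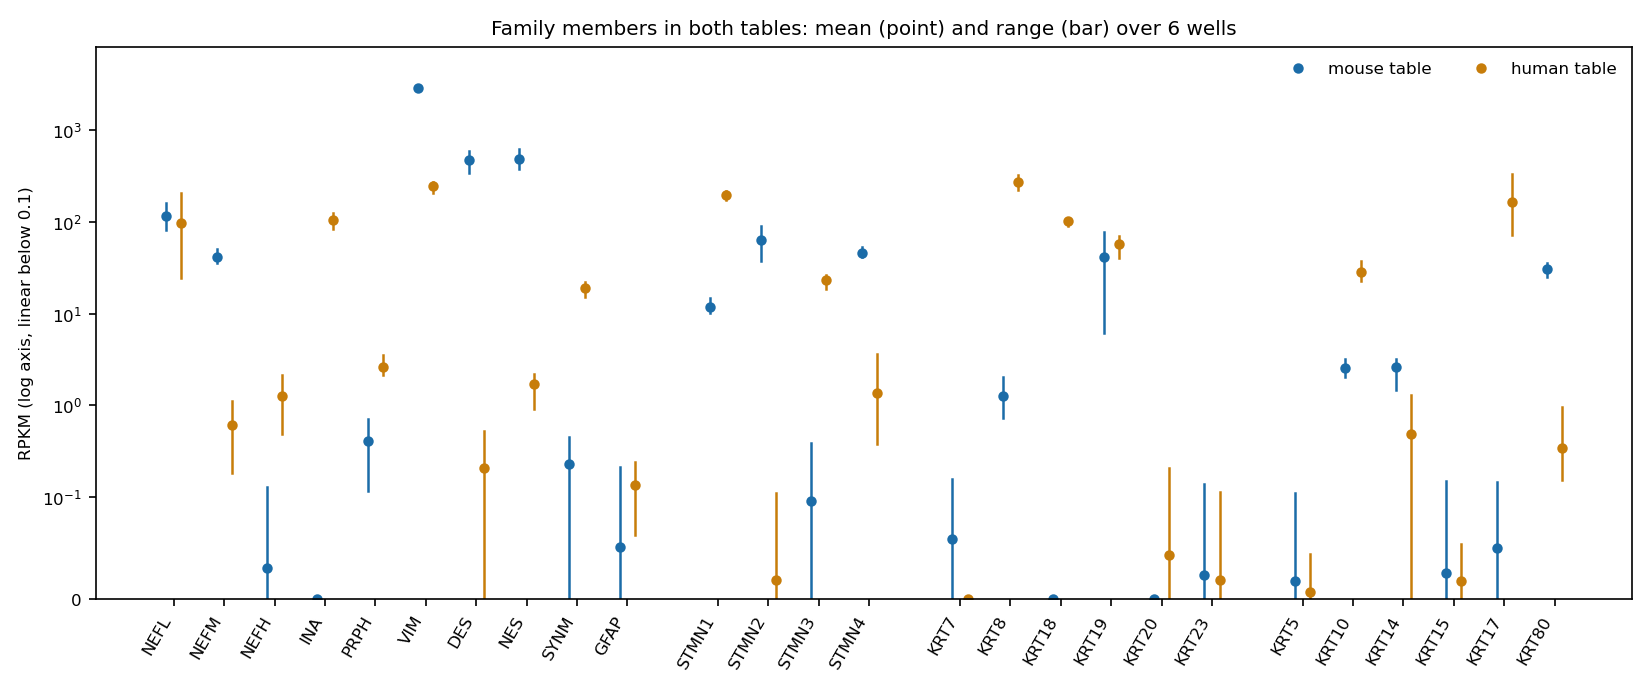
Mean RPKM over the 6 wells (points) with the range over wells (lines) for the intermediate filament, stathmin, simple keratin and other keratin genes in the mouse and the human table; the axis is logarithmic above 0.1 RPKM and linear below it. NEFL and Nefl stand at 96.0 and 116 RPKM, KRT8 at 272 against Krt8 at 1.28, and Vim at 2850 against VIM at 244.

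Between the wells with C2C12-Notch1 and those with C2C12-control, 1 of the 4 human genes tested was called, where 5.38% of all human genes were called. INA was higher beside C2C12-Notch1 (log2 0.15 ± 0.044 SE, edgeR adjusted p = 0.0277), and in each HEK line the well with C2C12-Notch1 was the higher. The call was lost in 9 of 12 alternatives, and over all 12 the adjusted p ranged from 0.003495 to 1. NEFL stood at −0.08 (95% interval −0.17 to 0.011), NEFM at −0.31 (−1.02 to 0.41) and KRT19 at −0.15 (−0.29 to −0.021, adjusted p = 0.181). Omitting either HEK-control well, that beside C2C12-control or that beside C2C12-Notch1, KRT19 was called lower (adjusted p = 0.0356 and 0.0321).

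Set side by side over the 6 wells, Nefl had 6747 reads and NEFL 12762, and Krt19 had 1821 and KRT19 3174. The other pairs were nearly all of a single species. Nefm had 2517 reads and NEFM 71, so that 2.74% of the pair was human (exact binomial 95% interval 2.15 to 3.45%). Stmn2 had 3072 reads and STMN2 1, or 0.0325% human (0.000824 to 0.181%). INA had 12802 reads and Ina 0, which allows a mouse share of up to 0.0234%. The intervals cover counting error only. For the keratin 19 pair the mouse share was 49.7, 53.6 and 59.7% in the C2C12-control wells and 5.17, 8.54 and 7.95% in the C2C12-Notch1 wells. Nefl was lower in the Notch1 wells while NEFL followed the HEK line, and NEFL differed between HEK lines while Nefl gave no call there.

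For the 4 genes whose log2 level ranged over more than 1 between wells, the tested genes most like them were found by the root mean square difference of centred log2 reads per 1000000 over the 6 wells, among genes averaging at least 10 reads per 1000000. Nearest to Stmn2 were Angpt1 (0.055), Fhl1 (0.058) and Dennd4a (0.062), and nearest to Krt19 were Cd248 (0.16), Smoc2 (0.18) and Sp6 (0.20). Nearest to NEFL were ALDH1L2 (0.17), IGFBPL1 (0.28) and MAP7D2 (0.30), and nearest to NEFM were RND2 (0.16), HLA-DRB5 (0.17) and CLDN1 (0.18). These are descriptions over 6 points that share 2 C2C12 lines and 3 HEK lines.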

How the data were processed

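RNA of 6 mixed wells was sequenced, and the authors deposited 2 tables, mouse and human, each with whole-number read counts and RPKM per gene and well, per the file headers. Reads were aligned with STAR to mm9 and hg19, per the submitters' processing notes; not given in the sources used here: aligner version, counter, its use of strand, and the way reads were divided between species. The library kit does not mark strand. Exact repeats of entries were left out (472 mouse, 448 human), and 121 mouse and 188 human names join several genes; 0 value columns lacked a sample. The depth per table and well was 2263529 to 10292878 gene reads.

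The counts were fitted per table with edgeR 4.0.16 (R 4.3.3): filterByExpr, TMM scaling, robust quasi-likelihood test, C2C12 line plus HEK line, 2 residual degrees of freedom, Benjamini-Hochberg adjustment over 11365 mouse and 13596 human genes. The common biological coefficient of variation was 3.89% and 3.54%. Alternatives were library-size scaling, no filter, DESeq2 1.42.0, limma 3.58.1 on the deposited RPKM as log2(RPKM + 0.1) or log2(RPKM + 1), the C2C12 line as only term, and each well left out. The scripts were tested on simulated data. The labels give no batch or date.

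The genes and the 9 gene lists were chosen with earlier results of these data known. The text names all of them, their partners in the other species, Notch1 and Jag1, up to 4 genes of a list by mean RPKM with others by count, and the 3 nearest genes of each wide-ranging gene; list members named beyond this were chosen after their values were seen. No sequences are printed.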

Additional observations from a re-analysis of the deposited data

How the results depend on the processing

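Of 32 tests of single genes, 16 were called, and 9 of these kept their call under all alternatives run; of the 16 not called, 13 stayed so, and no call changed direction. The NEFL calls between HEK lines and the Nefl, Stmn2 and Krt19 calls between C2C12 lines were among the 9. With DESeq2 fewer genes were called: 3585, 151, 7 and 37 against edgeR's 6569, 507, 60 and 231 in the mouse table (C2C12-Notch1, HEK-Jag1WT and HEK-Jag1Ndr against control, then HEK-Jag1Ndr against HEK-Jag1WT), and 69, 4267, 2995 and 4866 against 732, 7373, 6308 and 7907 in the human table. With limma on log2(RPKM + 0.1) and log2(RPKM + 1) the mouse counts were 130 and 149 for HEK-Jag1WT, 1 and 1 for HEK-Jag1Ndr, and 6 and 5 between ligand lines, and the human count between C2C12 lines was 20 and 19. Without the filter 91 mouse genes were called for HEK-Jag1Ndr. With the C2C12 line as the only term, edgeR called 0 human genes (50 at an unadjusted p under 0.05). The cause was not tested. Leaving out a well gave 303 to 580 (mouse, HEK-Jag1WT), 138 to 313 (mouse, between ligand lines) and 176 to 1414 (human, between C2C12 lines). Divided by the other species' reads, a denominator that itself differed between the C2C12 lines, the log2 differences between C2C12 lines became −1.81 for Nefl, −1.25 for Nefm, 0.09 for Stmn2, −4.16 for Krt19, 1.11 for INA, 0.81 for KRT19, 0.88 for NEFL (from −0.12 per human reads) and 1.02 for NEFM (from 0.02). The HEK line term already matches wells across the C2C12 lines; the labels give no replicate numbers for a further block. Depth limits NEFM, with 71 reads, and STMN2, with 1.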

Other observations

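In the human table, 14 of 20 neuron markers were at 1 RPKM or more, led by UCHL1, a ubiquitin hydrolase abundant in neurons, at a mean of 306 RPKM, with SYP at 25.1, MAPT at 16.9 and CHGA at 14.3 RPKM. Of the 15 tested, 4 were higher and 6 lower in HEK-Jag1WT than in HEK-control, and 5 were higher and 1 lower in HEK-Jag1Ndr; over all human genes tested 54.2% and 46.4% were called in these comparisons, 26.2% higher and 28% lower in the first and 22.9% and 23.5% in the second. Counts over so few genes are not a result about the list. In HEK-Jag1Ndr its calls were mostly higher, while those over all genes were nearly even. CHGA, which encodes a protein of secretory granules, stood at log2 −1.37 in HEK-Jag1WT and 0.49 in HEK-Jag1Ndr against HEK-control. That order was the opposite of NEFL. It was also the order in the few NEFM reads, where HEK-Jag1Ndr was not called apart from HEK-control. SCG3 had the same order as CHGA (−0.61 and 1.00). SNAP25 (0.60 and −0.46) and L1CAM (0.91 and −0.29) had the order of NEFL, though neither was called in HEK-Jag1Ndr. STX1A was higher in both ligand lines (1.47 and 0.72), so these genes had no common order of the lines. The transcriptional repressor of neuronal genes was present in both tables, Rest at 15.9 RPKM and REST at 12.6 RPKM.

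The markers of the 2 cell types lay mostly in the table of their own species. All 10 myoblast markers were at 1 RPKM or more in the mouse table, with a summed level of 1117 to 1395 RPKM in C2C12-control wells and 1489 to 1697 RPKM in C2C12-Notch1 wells, and 2 of 10 were so in the human table. Of 9 HEK markers, 7 were at 1 RPKM or more in the human table and 4 in the mouse table, among them Cdh2 at 25.7 RPKM, while Pax2, Sall4, Lhx1 and Krt18 had 0 mouse reads.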
